A study of Mus musculus with 8 samples.

Results

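Killer cell receptors are surface proteins best known from natural killer (NK) cells that some T cells also carry, above all CD8+ T cells. The 6 genes described here are Klrd1, Klrg1, Klrk1, Klrc1, Cd244 and Crtam, and they were chosen by gene symbol. Of the 6, 5 had a probe of that name on the array, with 9 of the 25697 probes and 5 of the 16593 named genes, and Klrc1 had none. A gene was tested when its detection p-value, the scanner's measure of signal above background, was under 0.01 on at least 2 of the 8 arrays. Klrd1, Klrg1 and Crtam passed, as 3 of 7403 tested genes.

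The RNA came from T cells of spleen and lymph nodes of male C57BL/6 mice, profiled on Illumina MouseRef-8 bead arrays. Rejecting mice carried tail skin of BDF1 donors (C57BL/6 x DBA/2), had no further treatment and were taken on day 7. Early tolerant mice (day 21) and tolerant mice (day 100) had the same graft together with a donor-specific transfusion and MR-1, an antibody to CD40L, while naive mice were healthy C57BL/6 mice with no graft. All T cells, naive ones included, met donor dendritic cells derived from bone marrow for 20 to 21 hours and were then sorted by CD69, a surface protein that appears soon after a T cell is stimulated. Each of the 4 states has 1 array per fraction, 8 arrays in all, and the labels do not say how many mice stand behind an array. The sorting text of the labels writes both fractions as CD69+, so each array's fraction was taken from its title. No group was cultured without donor dendritic cells.

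Klrd1 encodes CD94, a chain that pairs with NKG2 proteins. Its pair with NKG2A, the product of Klrc1, is inhibitory and in mice reads the class I-like molecule Qa-1, encoded by H2-T23. Klrk1 encodes the activating receptor NKG2D, which signals through the adaptor DAP10 (gene Hcst). Klrg1 encodes an inhibitory receptor for cadherins that marks T cells with a long history of antigen contact. Cd244 encodes 2B4, a receptor for CD48 that signals through SAP (gene Sh2d1a), and Crtam encodes a receptor for CADM1 seen on activated T and NK cells. In the RefSeq annotation of GRCm38.p6, Klrd1, Klrk1 and Klrc1 lie close together on chromosome 6, in the NK gene complex, and Klrg1 lies elsewhere on the same chromosome. Cd244, now called Cd244a, is on chromosome 1 and Crtam on chromosome 9.

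The arrays detected 9593 to 10308 probes (37.3% to 40.1%), and their number limits the precision. All 8 T cell markers were detected on every array, among them Cd3d. The probe for the CD8 chain Cd8a was not detected on any array, whereas Cd8b1, which encodes the other CD8 chain, was detected on all 8. Of 7 NK cell markers with a probe, Ncr1, Klra4, Klri2 and Itga2 were detected on no array and Klrb1c on 1. Klre1 was detected on 7 arrays and Eomes, which T cells also use, on 8. The NK marker signals summed to 776 to 1188 on CD69+ arrays and to 605 to 835 on CD69- arrays. Eomes alone gave 496 to 956 and 295 to 391 of these sums, and Klre1 ran the other way, with 37.7 to 179 on CD69+ and 94.2 to 243 on CD69- arrays. Among 4 B cell markers with a probe, only Cd79b was detected. Of the dendritic and myeloid cell markers, 15 of 15 tested genes were called higher in the CD69+ fraction, against 35.2% of all tested genes. Their median log2 difference was 2.16. Of these calls, 6 (Ccl17, Ccl22, Clec4n, Fcer1g, Lyz2 and Tyrobp) were lost under at least 1 alternative. Ccl22 and Tyrobp were detected on 2 arrays each, all CD69+, so they entered the test only through that fraction. Ccl17 and Ccl22 were not higher in the rejecting state. Signals of the 17 dendritic and myeloid markers with a probe were also summed. The CD69+ sums were 17609 in naive, 9184 in rejecting, 42729 in early tolerant and 56800 in tolerant cells. The CD69- sums were 5178 to 11018.

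The first comparison set the CD69+ cells against the CD69- cells sorted from the same culture. Klrd1 was lower in the CD69+ fraction of every state and Klrg1 was higher in every state, while the Crtam difference did not pass the test. Signals below are normalized and linear unless a value is called log2. In bulk RNA such as this, fewer cells of a type and less RNA per cell cannot be told apart. The 4 states stand in for replicates, so the p-values measure how steady a difference was over states.

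Klrd1 had a signal of 676 in naive, 1877 in rejecting, 944 in early tolerant and 676 in tolerant CD69+ cells. In the CD69- cells of the same states it had 5568, 8640, 7090 and 6739. The highest CD69+ array, from rejecting mice, lay well below the lowest CD69- array, from naive mice, so the fractions did not overlap. The log2 difference was -2.87 (SE 0.18, 95% confidence interval -3.30 to -2.43, 4 pairs, adjusted p = 2.34e-05 in limma), which is 7.3-fold lower. By state the CD69+ signal was 8.23-fold lower in naive, 4.6-fold lower in rejecting, 7.51-fold lower in early tolerant and 9.97-fold lower in tolerant cells. The gap was thus narrowest in rejecting cells. Klrd1 ranked 48 from the lowest of 7403 differences.

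Klrg1 showed the opposite direction. In CD69+ cells it was detected in all 4 states, with 180 in naive, 195 in rejecting, 336 in early tolerant and 340 in tolerant cells. In CD69- cells the signals were 71.1, 88.7, 57.3 and 54.8, and of these only the rejecting array was above the detection threshold. It passed narrowly, with a detection p of 0.00877, and the naive array missed narrowly, with 0.01003. The fractions did not overlap. The log2 difference was 1.92 (SE 0.28, 95% confidence interval 1.25 to 2.59, 4 pairs, adjusted p = 0.000806 in limma). The naive CD69+ signal was at least 2.32-fold higher than the CD69- signal, taking the lowest detected signal of the CD69- array where the gene was not detected. In rejecting cells it was 2.19-fold higher, a measured value. In early tolerant cells it was at least 4.33-fold and in tolerant cells at least 4.31-fold higher. The bounds of the naive and both tolerant states thus lie above the measured rejecting value, and the order among these bounds is not set. Without background correction the log2 difference over the states was 1.19, with the call kept.

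Crtam was dim but detected on all 8 arrays. Its CD69+ signals were 110 in naive, 116 in rejecting, 115 in early tolerant and 74.6 in tolerant cells. The CD69- signals were 96, 107, 85.7 and 127 in the same order. CD69+ was the higher fraction in 3 states and the lower one in tolerant cells, and the fractions overlapped. The log2 difference of -0.01 did not pass the test (SE 0.20, 95% confidence interval -0.48 to 0.46, adjusted p = 0.974 in limma). The state differences of 0.20, 0.11, 0.43 and -0.77 spread more widely than the mean. Without the tolerant pair the mean was 0.24, and its adjusted p of 0.115 also missed the threshold.

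Klrk1 had 4 probes and Cd244 had 2, and none of the 6 was detected on any array. The brightest Klrk1 probe came nearest in rejecting CD69+ cells, with a non-normalized signal of 145 and a detection p of 0.0213. Over the 4 Klrk1 probes the non-normalized signals ran from 84.5 to 145. The Cd244 probes ran from 77.4 to 98.2, with no detection p below 0.293. These values set no level for either gene, and no fold is given.

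**Figure D1:**
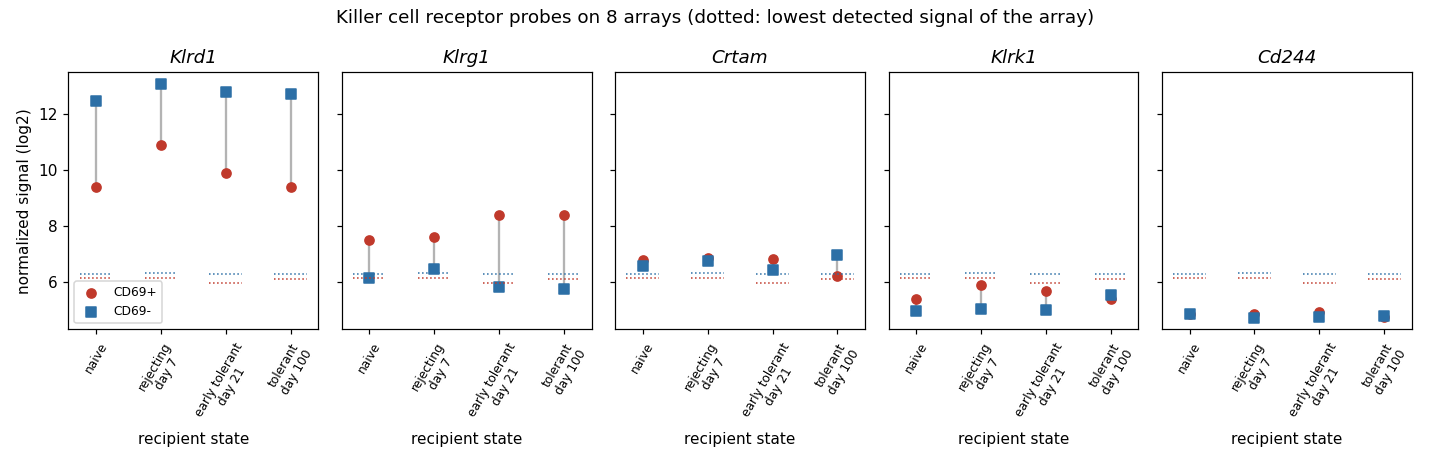
Normalized log2 signal (vertical axis) of the 5 genes with a probe, for the 4 recipient states (horizontal axis). Circles are CD69+ and squares CD69- arrays, 1 array each, joined by a line within a state, and dotted lines mark the lowest detected signal of each array. Klrd1 squares lie far above its circles, Klrg1 circles lie above its squares, and Klrk1 and Cd244 lie under the dotted lines.

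Calls in either direction were common in this comparison, and the receptors have to be read against that. Of 7403 genes, 35.2% were higher and 38% lower in CD69+ cells at an adjusted p under 0.05. Without overlap between the fractions, 31.7% were higher and 34.4% lower. Among the 3 tested receptors 1 was higher, 1 was lower and 1 did not pass, which is near these shares. Klrg1 has no firm rank, since its difference is a bound in 3 states.

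The direct comparison of Klrd1 with Klrg1 used only differences between fractions, since the levels of separate probes cannot be set against each other. Klrd1 minus Klrg1 was -4.38 in naive, -3.34 in rejecting, -5.46 in early tolerant and -5.95 in tolerant cells on the log2 scale. The sign was negative in 4 of 4 states, with a mean of -4.78 ± 1.17 (SD, n = 4). The exact sign-flip permutation test, 2-sided, gave p = 0.13, the smallest value that 4 pairs allow. Outside the rejecting state these gaps rest on CD69- signals of Klrg1 below the detection threshold, so their order among the naive and tolerant states is not set. In rejecting cells Klrd1 had its smallest drop and Klrg1 its smallest rise, with the naive bound of Klrg1 close to it.

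Klrd1 moved together with genes that were also lower in CD69+ cells. Cd8b1 had CD69+ signals of 14736 in naive, 25776 in rejecting, 13337 in early tolerant and 8938 in tolerant cells, and 48551 to 49152 in CD69- cells. It fell by 1.74 in log2 (SE 0.23, 4 pairs, adjusted p = 0.000471 in limma), and its smallest drop was also in rejecting cells. The part of CD8+ cell content in the Klrd1 difference was not tested. With the brightest probe of each gene, Klrd1 fell further than Cd8b1 in 4 of 4 states, with a mean log2 gap of -1.12 ± 0.21 (SD, n = 4). This gap depends on the probe. With the mean of a gene's probes, the log2 difference was -2.11 for Cd8b1 and -2.87 for Klrd1, a narrower gap. Its values by state were not computed with that setting. The Cd8b1 signals of the CD69- arrays sit within 1.01-fold of each other near the top of the scale, where differences may be compressed. Against Cd3d, a chain of the T cell receptor complex, the gap was -1.73 ± 0.39 (SD, n = 4). Klrd1 was again further down in 4 of 4 states. Cd3d had the largest drop of the 8 T cell markers, with a log2 difference of -1.14. Of these 8 markers, 4 fell, 3 did not pass and Thy1 rose by 0.72, with a median of -0.51.

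**Figure D2:**
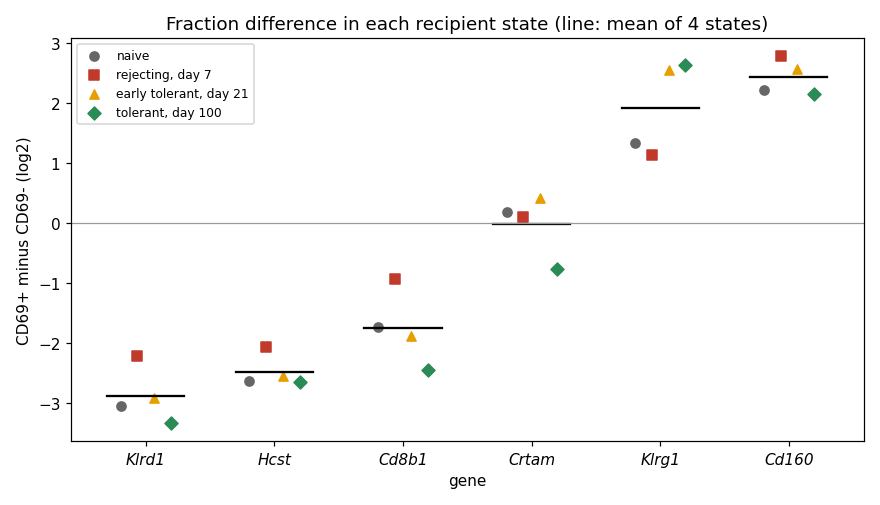
CD69+ minus CD69- log2 difference (vertical axis) of 6 genes (horizontal axis), with 1 symbol per recipient state and a line at the mean of 4 states. Klrd1, Hcst and Cd8b1 lie below 0 in all states with the rejecting state highest, Klrg1 and Cd160 lie above 0, and the tolerant symbol of Crtam lies apart from the other 3.

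Over the 8 arrays, the genes whose log2 signals followed Klrd1 most closely were Rpusd4, a pseudouridine synthase gene (Pearson r = 0.998), Tmem108 (0.996) and Sipa1l1 (0.996). Hcst reached 0.989 and Cd8b1 0.972, while Klrg1 ran the other way at -0.912. Closest to Klrg1 were Rab27a, which encodes a GTPase needed for the release of cytotoxic granules (0.990), Mvd, an enzyme gene of sterol synthesis (0.985), and the DNA polymerase subunit gene Pold3 (0.979). Closest to Crtam were Slc25a38 (0.966), Nupl1 (0.943) and Cnpy4 (0.913). Cnpy4 was detected on only 2 of the 8 arrays, so its value rests largely on signals below the detection threshold. These values describe 8 arrays that share 4 cultures, and for Klrd1 and Klrg1 they largely restate the split between fractions.

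The partners of these receptors were followed through lists of related genes. Of 29 other killer cell receptor genes, 23 had a probe and 9 were tested. Among these, 2 rose, 2 fell and 5 did not pass, with a median log2 difference of 0.05 against -0.04 over all tested genes. Cd160, a receptor of NK and CD8+ T cells that binds the herpesvirus entry mediator, rose by 2.43 (SE 0.13, adjusted p = 1.51e-05 in limma). Its CD69+ signals were 617 in naive, 771 in rejecting, 1060 in early tolerant and 535 in tolerant cells, and its CD69- signals were 131, 112, 179 and 121. Slamf7, which encodes a relative of 2B4, was detected on the 4 CD69+ arrays and on no CD69- array, and was at least 1.56-fold higher. It thus entered the test only through the fraction where it was high. Its call, 1 of the 2 that rose, is therefore no support for a difference. Cd96, a receptor for the poliovirus receptor, fell by 1.26 (SE 0.11, adjusted p = 8.14e-05). Klre1, a lectin-like receptor of the NK gene complex, fell by 0.79 (SE 0.25, adjusted p = 0.024), and this call was lost under 5 of 12 alternatives. Its adjusted p in limma was 0.0519 with median scaling, 0.0564 without the tolerant pair, 0.063 with no filter on dim probes, 0.0854 without the naive pair and 0.141 without the block for state. Its partner gene Klri1 was not detected, and Klrc2, another NKG2 partner of CD94, had no named probe.

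Among 15 adaptor and signalling genes, 12 were tested, of which 3 rose, 7 fell and 2 did not pass, with a median of -0.37. Hcst, the adaptor of NKG2D, fell by 2.47 in log2 (SE 0.13, 4 pairs, adjusted p = 1.28e-05 in limma), close to the drop of Klrd1. Its CD69+ signals of 1115 in naive, 1775 in rejecting, 1236 in early tolerant and 1058 in tolerant cells follow the order of states seen for Klrd1, with rejecting highest. The CD69- signals of Hcst were 6595 to 7420. The Klrd1 difference minus that of Hcst was -0.40 ± 0.22 in log2 (SD, n = 4). Sh2d1a fell by 1.08 (SE 0.16, adjusted p = 0.000913), and Pik3r1, a subunit of the kinase that DAP10 recruits, fell by 1.06 (SE 0.12, adjusted p = 0.000252).

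Ptpn6, the phosphatase SHP-1 that inhibitory receptors such as NKG2A engage, rose by 1.05 (SE 0.09, adjusted p = 6.88e-05 in limma). Tyrobp, which encodes the adaptor DAP12, was at least 1.29-fold higher (adjusted p = 0.0251). It was detected only in CD69+ cells of the early tolerant and tolerant states, at 157 and 324, and is also one of the myeloid markers, which were highest on the same arrays. The part of myeloid RNA in it was not tested. The Tyrobp call was lost under 4 alternatives: without the early tolerant pair (adjusted p = 0.0992), without the tolerant pair (0.0852), without the block for state (0.086) and with no filter on dim probes (0.0708).

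Among 17 ligand genes, 10 had a probe and 4 were tested, of which 2 fell and 2 did not pass, with a median of -0.22. H2-T23, which encodes the Qa-1 ligand of CD94, fell by 0.73 (SE 0.11, adjusted p = 0.000925 in limma) from 16903 to 22183 in CD69- cells to between 9346 and 14510 in CD69+ cells. H2-D1, a classical class I gene, fell by 0.42 (adjusted p = 0.0105), with the call lost under median scaling (adjusted p = 0.0665). Cd48, the ligand of 2B4, differed by 0.22 (SE 0.17, adjusted p = 0.282). The CRTAM ligand gene Cadm1 was not detected, and Cdh1, whose product E-cadherin binds KLRG1, was detected on 1 array.

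Of 11 regulators of effector T cells, 8 were tested, 7 rose and 1 did not pass, with a median of 0.92. Tbx21, which encodes T-bet and is known to favour KLRG1 expression in mouse CD8+ T cells, rose by 1.69 (SE 0.27, adjusted p = 0.00135 in limma). Il2rb, a chain of the IL-2 and IL-15 receptors, rose by 1.21 (adjusted p = 5.08e-05). Il15ra rose by 0.98 (adjusted p = 0.007), but its fractions differed by only 1.03-fold in rejecting cells. In early tolerant and tolerant CD69- cells Il15ra was not detected, so the rises there are bounds of at least 2.28-fold and 1.98-fold. Zeb2, a repressor active in terminal effector cells, was at least 1.18-fold higher. Zeb2 was detected on 3 CD69+ arrays, not the naive one, and on no CD69- array. It thus entered the test only through the fraction where it was high. Its call, 1 of the 7, is therefore no support for a difference. The order of states differed between Tbx21 and Klrg1. In CD69+ cells Tbx21 had 1107 in naive, 911 in rejecting, 410 in early tolerant and 258 in tolerant cells. Klrg1 was highest in both tolerant states, where Tbx21 was lowest. Each value is from 1 array, and a link between Tbx21 and Klrg1 was not tested.

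**Figure D3:**
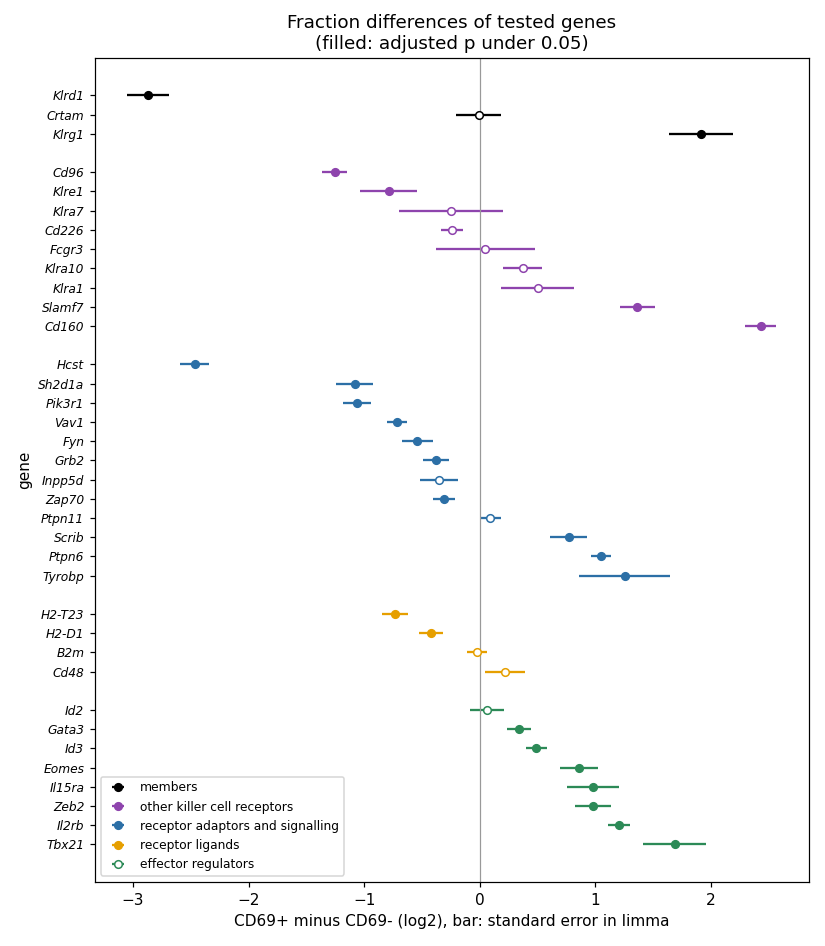
CD69+ minus CD69- log2 difference (horizontal axis) with its standard error in limma for the tested genes of the 5 lists (vertical axis, coloured by list), filled where the adjusted p was under 0.05. Klrd1 and Hcst lie farthest to the left and Cd160 farthest to the right of the genes shown, and 7 of the 8 effector regulators are filled to the right of 0.

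The second comparison set the recipient states against each other within a fraction. It has 1 array per state, so the values below have no replicate check and no test, and a size of 1.5-fold, the threshold of the series design, serves as a rule. Over 20 differences in which the gene was detected on both arrays, 7 passed 1.5-fold in either direction. Over all tested genes detected on both arrays, the same comparisons pooled gave 7.48%. The comparisons share arrays, so the 7 are not independent of each other. Klrd1 was highest in rejecting cells and Klrg1 in both tolerant states, in each case in the CD69+ fraction.

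The rejecting CD69+ signal of Klrd1, 1877, was 2.78-fold that of naive cells and 2.78-fold that of tolerant cells, both at 676. Early tolerant cells at 944 were 1.4-fold above naive ones. In that fraction 6.59% of all tested genes were at least 1.5-fold higher in rejecting than in naive cells, and 7.39% in rejecting than in tolerant cells. In CD69- cells the rejecting array was again the brightest, 1.55-fold above naive, where 3.67% of genes passed. Early tolerant and tolerant CD69- cells were 1.27-fold and 1.21-fold above naive. Cd8b1 in CD69+ cells was likewise 1.75-fold higher in rejecting than in naive cells and 2.88-fold higher than in tolerant cells. The part of CD8+ cell content in the Klrd1 values was not tested.

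Klrg1 in CD69+ cells was 1.87-fold higher in early tolerant than in naive cells, and 4.69% of all tested genes were at least 1.5-fold higher there. In tolerant cells it was 1.89-fold above naive, where 6.7% of genes passed. Rejecting cells, at 195, were within 1.08-fold of naive cells, and they were 1.75-fold below tolerant cells, where 8.16% of genes passed in that direction. The early tolerant and tolerant arrays were alike at 336 and 340. These are also the CD69+ arrays with the highest dendritic and myeloid signal, a median log2 difference from naive of 1.47 and 1.81 over 15 marker genes. Rejecting cells had a median of -1.33. The part of dendritic cell RNA in the Klrg1 values was not tested. In CD69- cells Klrg1 was detected only in the rejecting state, at least 1.12-fold above tolerant cells.

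Crtam in CD69+ cells was 1.55-fold higher in rejecting than in tolerant cells, and 7.39% of genes passed that rule. This came from the low tolerant array at 74.6, since naive, rejecting and early tolerant cells lay between 110 and 116. The log2 difference of 0.63 was 0.34 without background correction and 0.46 with an offset of 50, both within 1.5-fold. All other Crtam differences between states that were computed lay within 1.5-fold.

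**Figure D4:**
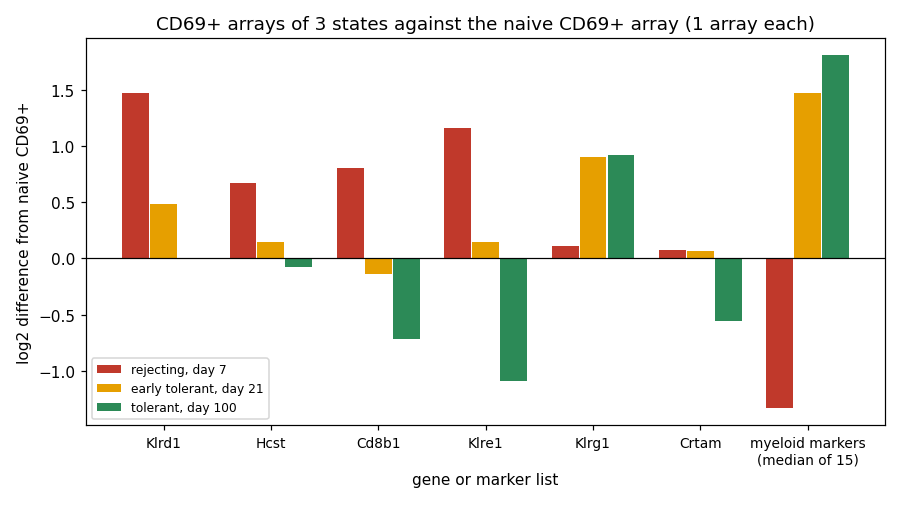
Log2 difference from the naive CD69+ array (vertical axis) of the rejecting, early tolerant and tolerant CD69+ arrays, 1 array each, for 6 genes and the median of 15 dendritic and myeloid markers (horizontal axis). Klrd1, Hcst, Cd8b1 and Klre1 are highest in the rejecting array, whereas Klrg1 is highest in both tolerant states, as is the marker median. Klre1 was not detected on the tolerant array, so its bar there sets no level.

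The series design defines candidate tolerance genes and candidate rejection genes by ratios between CD69+ arrays, ratios between fractions and a signal of at least 500. On the deposited normalized signals, 1.34% of tested genes met all tolerance criteria and 1.28% all rejection criteria, and none of the 3 tested receptors met either set. Klrg1 missed only 1 tolerance criterion. Its tolerant CD69+ signal was 1.62 times that of naive cells and 3.15 times that of tolerant CD69- cells, but at 419 it missed the signal minimum. Klrd1 met the first and last rejection criteria, with a ratio of 2.59 between rejecting and tolerant CD69+ cells and a signal of 1956. It failed the remaining one, since its rejecting CD69+ signal was 0.224 times the CD69- signal. Crtam met no criterion of either set on these signals.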

How the data were processed

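The authors deposited non-normalized bead intensity values with a detection p-value per probe, per the file headers, and a second table of normalized intensity values with no normalization method named in the labels or headers. BeadStudio 3.1.3 was used, per the submitters' processing notes. Identifiers of the non-normalized probes were out of register with their values, so all 25697 probes were matched to the normalized table through their values, and 20106 (78.2%) changed identifier. Intensities were processed with neqc in limma 3.58.1 (R 4.3.3; detection p-values in place of negative controls, offset 16, log2). The offset shrinks folds of dim genes, while background correction widens them. For Klrg1 the log2 difference was 1.92 with background correction and 1.19 without. A gene was its brightest probe. Fractions were compared in limma with state as a block (3 residual degrees of freedom, 2-sided, Benjamini-Hochberg adjustment over 7403 genes). The pairing comes from the shared culture, and deviations of paired arrays correlated by 0.209 to 0.345. The procedure was also run on simulated data in which few genes changed, unlike here, so it sets no error rate for these calls.

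The members and lists were chosen with earlier results of these data known. Named list genes were up to 4 with the largest called difference per list, plus known partners of a member. Ptpn6 and Klri1 were named outside this rule, and no values under the alternatives are given for Ptpn6. No sequence is shown.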

Additional observations from a re-analysis of the deposited data

Results flagged for a closer look

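Among the 4 CD69+ arrays, the tolerant array stood apart for Crtam. Its gap to the nearest array was 0.8875 of the whole range, above Dixon's 95% critical value for 4 samples, and such gaps arise by chance in about 1 of 20 groups. The log2 difference of Crtam between fractions was -0.77 in tolerant cells (-0.7652 before rounding) and above 0 in the other 3 states, and this contrast between states was not tested. Its non-normalized signals of 164 in CD69+ and 188 in CD69- tolerant cells had detection p-values of 0.00501 and 0.00125.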

How the results depend on the processing

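The Klrd1 and Klrg1 differences between fractions kept their direction and passed the threshold under all 12 alternatives, with adjusted p-values up to 0.000366 and 0.00447. Leaving out 1 state at a time gave -3.09 to -2.72 for Klrd1, 1.68 to 2.18 for Klrg1 and -0.15 to 0.24 for Crtam. Klrg1 was 1.19 without background correction. Crtam turned to 0.17 with median scaling and 0.24 without the tolerant pair, and missed the threshold in both. Cd2 turned to 0.039 with median scaling, and Cd5 ranged from -0.0171 to 0.0945 with 1 state left out, neither being called. Median scaling moved the median of all genes from -0.04 to 0.10 and the split of calls from 2607 higher and 2816 lower to 2962 and 2374. Without the block for state, 2531 genes were higher and 2776 lower, and no call of Klrd1, Klrg1 or Crtam changed. The lone array per group leaves all differences between states without a replicate check, and signals near background limit Klrg1, Crtam, Klrk1 and Cd244.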

Other observations

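RefSeq promoter windows of GRCm38.p6 (300 bases) were held for Klrk1, Klrc1 and Cd244a. The RUNX letters TGTGGT, searched on both strands, occurred 1 time each for Klrk1 and Klrc1 and 0 times for Cd244a, against 16.8% of 32851 promoters with a match. The AP-1 letters TGANTCA occurred 1 time each for Klrk1 and Cd244a and 0 times for Klrc1, against 7.81% of promoters. The NFAT letters GGAAA occurred 0 times for Klrk1, 1 time for Klrc1 and 2 times for Cd244a, against 61.3% of promoters. The T-box letters GGTGTGA occurred in none of the 3 windows, against 3.98% of promoters. A match describes letters only.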
